A study of Mus musculus with 7 samples.

Results

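The 39 protein-coding Hox genes of the mouse lie in 4 clusters, Hoxa to Hoxd, and here they were followed gene by gene through the repressive histone mark H3K27me3 and the activating mark H3K27ac in globose basal cells (GBCs), basal progenitors that divide and renew the olfactory epithelium. Members were all protein-coding genes with the symbol Hoxa, Hoxb, Hoxc or Hoxd and a number, 39 of the 21883 protein-coding genes on the autosomes and sex chromosomes of the RefSeq table of GRCm38.p6. The rule used gene symbols and no measured value, though it was set with earlier results of these data known. The mice were adult and wild-type and were killed 7 to 10 days after receiving methimazole, which destroys this epithelium and sets off its rebuilding. GBCs were enriched from the dissociated mucosa by magnetic selection for the receptor c-Kit, and 3 mice were pooled for each replicate. Each mark had 2 libraries, and there was no unlesioned group, no mutant and no second cell type, so the values describe where the marks lie in these cells. The 3 input libraries have no peak list here.

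Hox genes encode homeodomain transcription factors that give cells a position along the head-to-tail axis. Within a cluster the genes stand in the order of the body regions they pattern, with low numbers acting toward the head and high numbers toward the tail, and genes with the same number in different clusters are paralogues. The olfactory epithelium arises in front of the region where Hox genes act. H3K27me3 is laid down by Polycomb Repressive Complex 2 (PRC2), and Hox clusters are its textbook example, with broad domains over genes that are kept silent. H3K27ac marks active promoters and enhancers and sits on the same lysine, so a single lysine cannot hold both.

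H3K27me3 replicates 1 and 2 (called library 1 and library 2 below) had 95749 and 65172 peaks, and H3K27ac libraries 1 and 2 had 77680 and 64279. Their median fold enrichment, the authors' own ratio of each peak over its background, was 3.46, 3.21, 3.61 and 3.43 in that order. Bases under H3K27me3 peaks of both libraries made up 1.87% of the genome span. The depth of the libraries is unknown, because the peak lists give no read totals. All 12 GBC markers looked up had H3K27ac in both libraries, among them Kit itself, and 8 of the 12 also had H3K27me3, beside 60.8% of all protein-coding genes with H3K27ac, 28.7% with H3K27me3 and 17.5% with both. Markers of other cells had H3K27ac in both libraries at 2 of 4 genes for horizontal basal cells, 3 of 4 for sustentacular cells, 3 of 4 for mature neurons, 1 of 5 for stroma, 3 of 3 for endothelium, 3 of 5 for leukocytes, 0 of 4 for mast cells and 2 of 4 for melanocytes. Ptprc, the pan-leukocyte marker, and Trp63, the defining factor of horizontal basal cells, had no peak of either mark in either library at their gene ends. The leukocyte markers with H3K27ac in both were Cd68 (10.7 and 6.11), Csf1r (7.98 and 3.14) and Lyz2 (3.97 and 2.95). Those of horizontal basal cells were Icam1 (8.17 and 4.96) and Krt14 (2.89 and 3.32). The part of other cells in the Hox values was not tested.

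Every Hox gene carried H3K27me3. A gene was counted as marked when both libraries had a peak within 1 kb of either end of the gene, and 39 of 39 Hox genes met this rule against a background of 28.7% of all protein-coding genes. With only peaks of −log10 q of at least 5 in both libraries, 39 of 39 Hox genes remained, where the background fell to 4.58%. The fold enrichment of a gene, taken as the highest fold of the peaks in those windows, ran from 9.99 at Hoxc13 to 15.7 at Hoxa3, Hoxa7 and Hoxa9 in library 1, with a median of 12.5. In library 2 it ran from 6.58 at Hoxc12 to 9.75 at Hoxd10 and Hoxd11, with a median of 8.64. Taken alone, library 1 marked 39 of 39 Hox genes (background 46.5%) and library 2 also 39 of 39 (background 31.6%). Even the lowest Hox value stood above 99.3% of all H3K27me3 peaks of library 1 and above 99.2% of those of library 2. When all 6275 genes marked in both libraries were ranked by fold, the Hox genes held ranks 9 (Hoxa3) to 272 (Hoxc12), with a median rank of 93, and 26 of the top 100 genes were Hox genes. Neighbouring genes often shared a peak, so the 39 genes rested on 27 different peaks in library 1 and on 22 in library 2 and are not independent of each other.

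**Figure D1:**
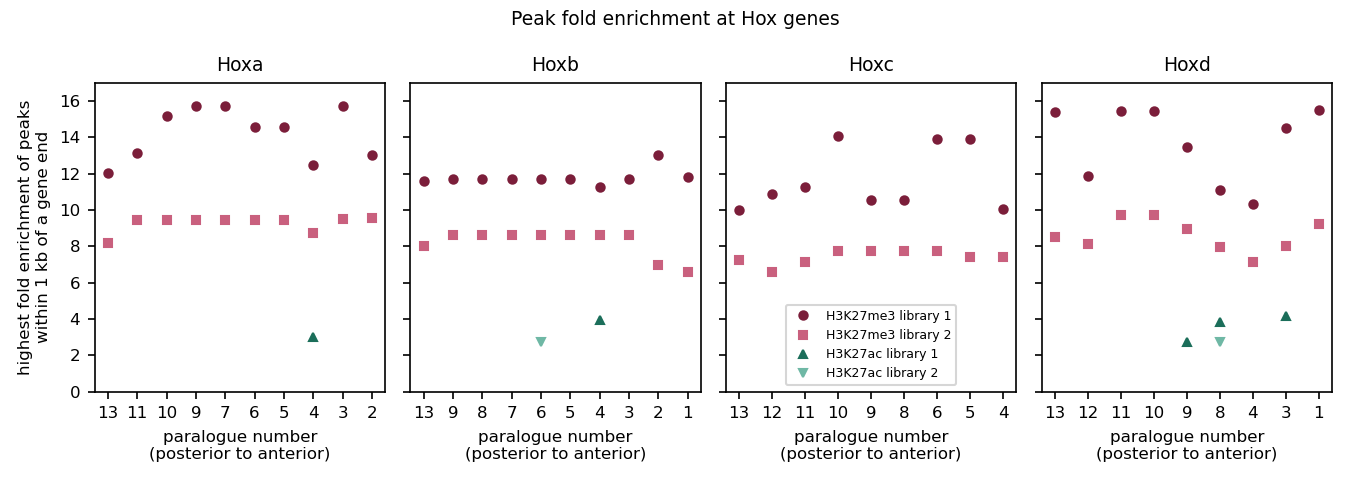
Highest fold enrichment of the peaks within 1 kb of a gene end (vertical axis, the authors' ratio) for Hox genes, from posterior to anterior paralogue number (horizontal axis), with circles and squares for H3K27me3 libraries 1 and 2 and triangles for H3K27ac libraries 1 and 2. All genes drawn have H3K27me3 points in both libraries, between 9.99 and 15.7 in library 1 and between 6.58 and 9.75 in library 2, while few have an H3K27ac point.

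H3K27me3 also covered the Hox genes along their length. Of each gene with 1 kb added on each side, bases covered in both libraries made up a median of 83.1%, from 38.2% at Hoxc13 to 100% at 11 genes. At least 80% was covered at 23 of 39 Hox genes, against a background of 1.32% of protein-coding genes. In library 2 alone the median reached 100%. Coverage and fold described different things: across the 39 genes, which share peaks, Pearson's r between the share covered and the fold of library 1 was −0.07 and Spearman's rho −0.15. The folds of the 2 libraries over the same genes had r = 0.641 and rho = 0.645.

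Other families of developmental transcription factors gave a scale for these values. All 14 Nkx, 8 Lhx and 9 Pax genes were marked in both libraries, as were 32 of 44 Fox genes. The median share of the gene covered was 86.1% for Nkx, which are as short as Hox genes (median length 3.65 against 3.74 kb), 63.97% for Lhx, 45.3% for Pax and 47.3% for Fox. Pax and Lhx genes are longer, with medians of 55.0 and 23.8 kb. Median folds of marked genes in libraries 1 and 2 were 12.04 and 7.21 for Nkx and 11.4 and 6.74 for Lhx, beside 12.5 and 8.64 for Hox. The Nkx genes, homeobox genes that are not clustered in this way, thus overlapped the Hox genes in coverage and in fold, and no test of a difference between the families was made.

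**Figure D2:**
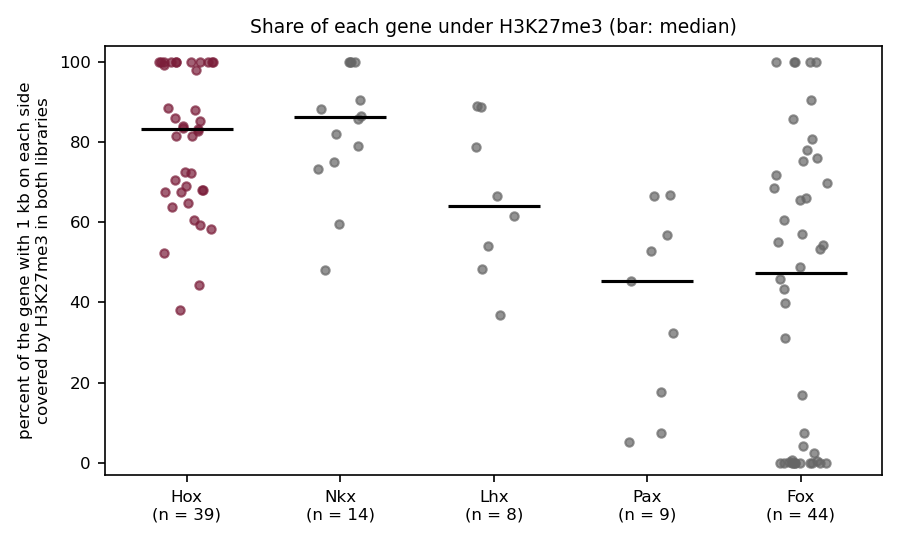
Percent of each gene, with 1 kb on each side, covered by H3K27me3 in both libraries (vertical axis). The horizontal axis gives 5 families of developmental transcription factors, with 1 point per gene and a bar at the median. Hox genes lie between 38.2% and 100% and none is at 0, and the Nkx genes span 48.0% to 100%.

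By cluster, Hoxa genes had the highest median fold and Hoxc genes the lowest in both libraries. Median folds in libraries 1 and 2 were 14.6 and 9.48 for Hoxa, 11.7 and 8.64 for Hoxb, 10.9 and 7.41 for Hoxc, and 14.5 and 8.51 for Hoxd. The order of Hoxb and Hoxd changed between the libraries. Over classes of paralogue groups the median fell slightly from head to tail in library 2 but had no single direction in library 1. Genes with numbers 1 to 3 had medians of 13.05 and 8.93, those with 4 to 8 had 11.7 and 8.64, and those with 9 to 13 had 12.6 and 8.35. The ranges of these classes overlapped almost completely, from 11.7 to 15.7 in the anterior, 10.1 to 15.7 in the central and 9.99 to 15.7 in the posterior class of library 1. In library 2 they were 6.61 to 9.58, 7.16 to 9.48 and 6.58 to 9.75 in the same order.

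The Hoxa cluster spans 105.5 kb at chr6:52155367-52260880 of GRCm38 (mm10), with Hoxa13 at its high-coordinate end. H3K27me3 peaks covered 71.2% of the span in library 1 and 86.1% in library 2, in 20 and 9 peaks. In library 1 the highest values lay in the middle of the cluster, while in library 2 the genes from Hoxa11 to Hoxa2, other than Hoxa4, lay within 9.48 to 9.58, with Hoxa2 at 9.58. Hoxa9 and Hoxa7 shared a peak of 15.7 in library 1 and of 9.48 in library 2, and this peak of library 1 also reached an end window of Hoxa3 (15.7 and 9.52), a 44.0 kb gene whose annotated span contains Hoxa4, Hoxa5 and Hoxa6. Hoxa10 followed with 15.2 and 9.48, and Hoxa6 and Hoxa5 shared 14.6 and 9.48. Library 1 was lower toward both ends of the cluster, with 13.2 at Hoxa11 and 13.05 at Hoxa2. The lowest were Hoxa4 (12.5 and 8.72) and Hoxa13 (12.02 and 8.20), Hoxa13 being the gene that shapes the tips of the limbs and the genital tract. Coverage in both libraries was 100% at Hoxa6 and Hoxa7 and between 64.7% (Hoxa3) and 87.9% (Hoxa10) at the others.

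The Hoxb cluster spans 173.9 kb at chr11:96194316-96368254, and its Hoxb13 gene stands apart from the rest, separated from Hoxb9 by the gap where the mouse has no Hoxb10 to Hoxb12. Coverage was 72.6% in library 1 and 93.3% in library 2, in 32 and 9 peaks. A single peak of 39.6 kb in library 1, and of 53.3 kb in library 2, ran over Hoxb9, Hoxb8, Hoxb7, Hoxb6 and Hoxb5 and into Hoxb3. These 6 genes therefore had the same folds, 11.7 and 8.64, and the first 5 were covered to 100% in both libraries. Hoxb13 had 11.6 and 8.03 and was also covered to 100%. Hoxb4 had 11.2 and 8.64 with 68.0% of the gene covered in both libraries, and Hoxb3, which spans 40.8 kb and contains Hoxb4, had 72.4%. The anterior pair differed between the libraries in rank: Hoxb2 had the highest fold of its cluster in library 1, 13.01, and one of the lowest in library 2, 6.97, while Hoxb1 had 11.8 and 6.61. Hoxb1 marks a single hindbrain segment, rhombomere 4, in the embryo.

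The Hoxc cluster spans 115.7 kb at chr15:102921131-103036856 and holds no gene of paralogue groups 1 to 3. Coverage was 67.5% in library 1 and 90.01% in library 2, in 23 and 9 peaks. Hoxc10, a posterior gene of the lumbar region and hindlimb, had the highest fold in library 1, 14.1, and 7.72 in library 2. Hoxc6 and Hoxc5 shared a peak of 13.9 in library 1 and had 7.72 and 7.41 in library 2. Hoxc9 and Hoxc8 had 10.5 and 7.72 each. The Hoxc members at the 2 ends of the cluster were the least covered of all 39 genes over bases covered in both libraries, though not in library 2 alone, where Hoxd13 was lowest at 60.0%. Hoxc13, which acts in hair and nails, had folds of 9.99 and 7.25 and was covered over 38.2% of its length in library 1 and 71.1% in library 2. Hoxc4 had 10.1 and 7.41 with 44.7% and 81.7% covered. Hoxc12 had the lowest rank of all Hox genes, 10.9 and 6.58, yet 100% of the gene was covered in both libraries. Hoxc11 had 11.3 and 7.15 with 97.9% covered in both.

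The Hoxd cluster, the shortest of the 4, spans 96.9 kb at chr2:74668225-74765142. It had the lowest coverage, 63.4% in library 1 and 82.9% in library 2, in 19 and 13 peaks, and no Hoxd gene was covered to 100% in both libraries. Its folds were nevertheless among the highest. Hoxd1, at the anterior end, had 15.5 and 9.22, Hoxd11 and Hoxd10 shared a peak of 15.4 and 9.75, and Hoxd13, a digit-patterning gene at the posterior end, had 15.4 and 8.51. The narrow coverage at the 2 ends contrasted with these folds: 52.3% of Hoxd13 and 59.2% of Hoxd1 was covered in both libraries. Hoxd3 had 14.5 and 8.01, Hoxd9 13.5 and 8.97 with 99.2% covered, and Hoxd12 11.9 and 8.14 with 63.7% covered. The lowest were Hoxd8 (11.1 and 7.99) and Hoxd4 (10.3 and 7.16), which were covered over 84.0% and 88.3%.

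**Figure D3:**
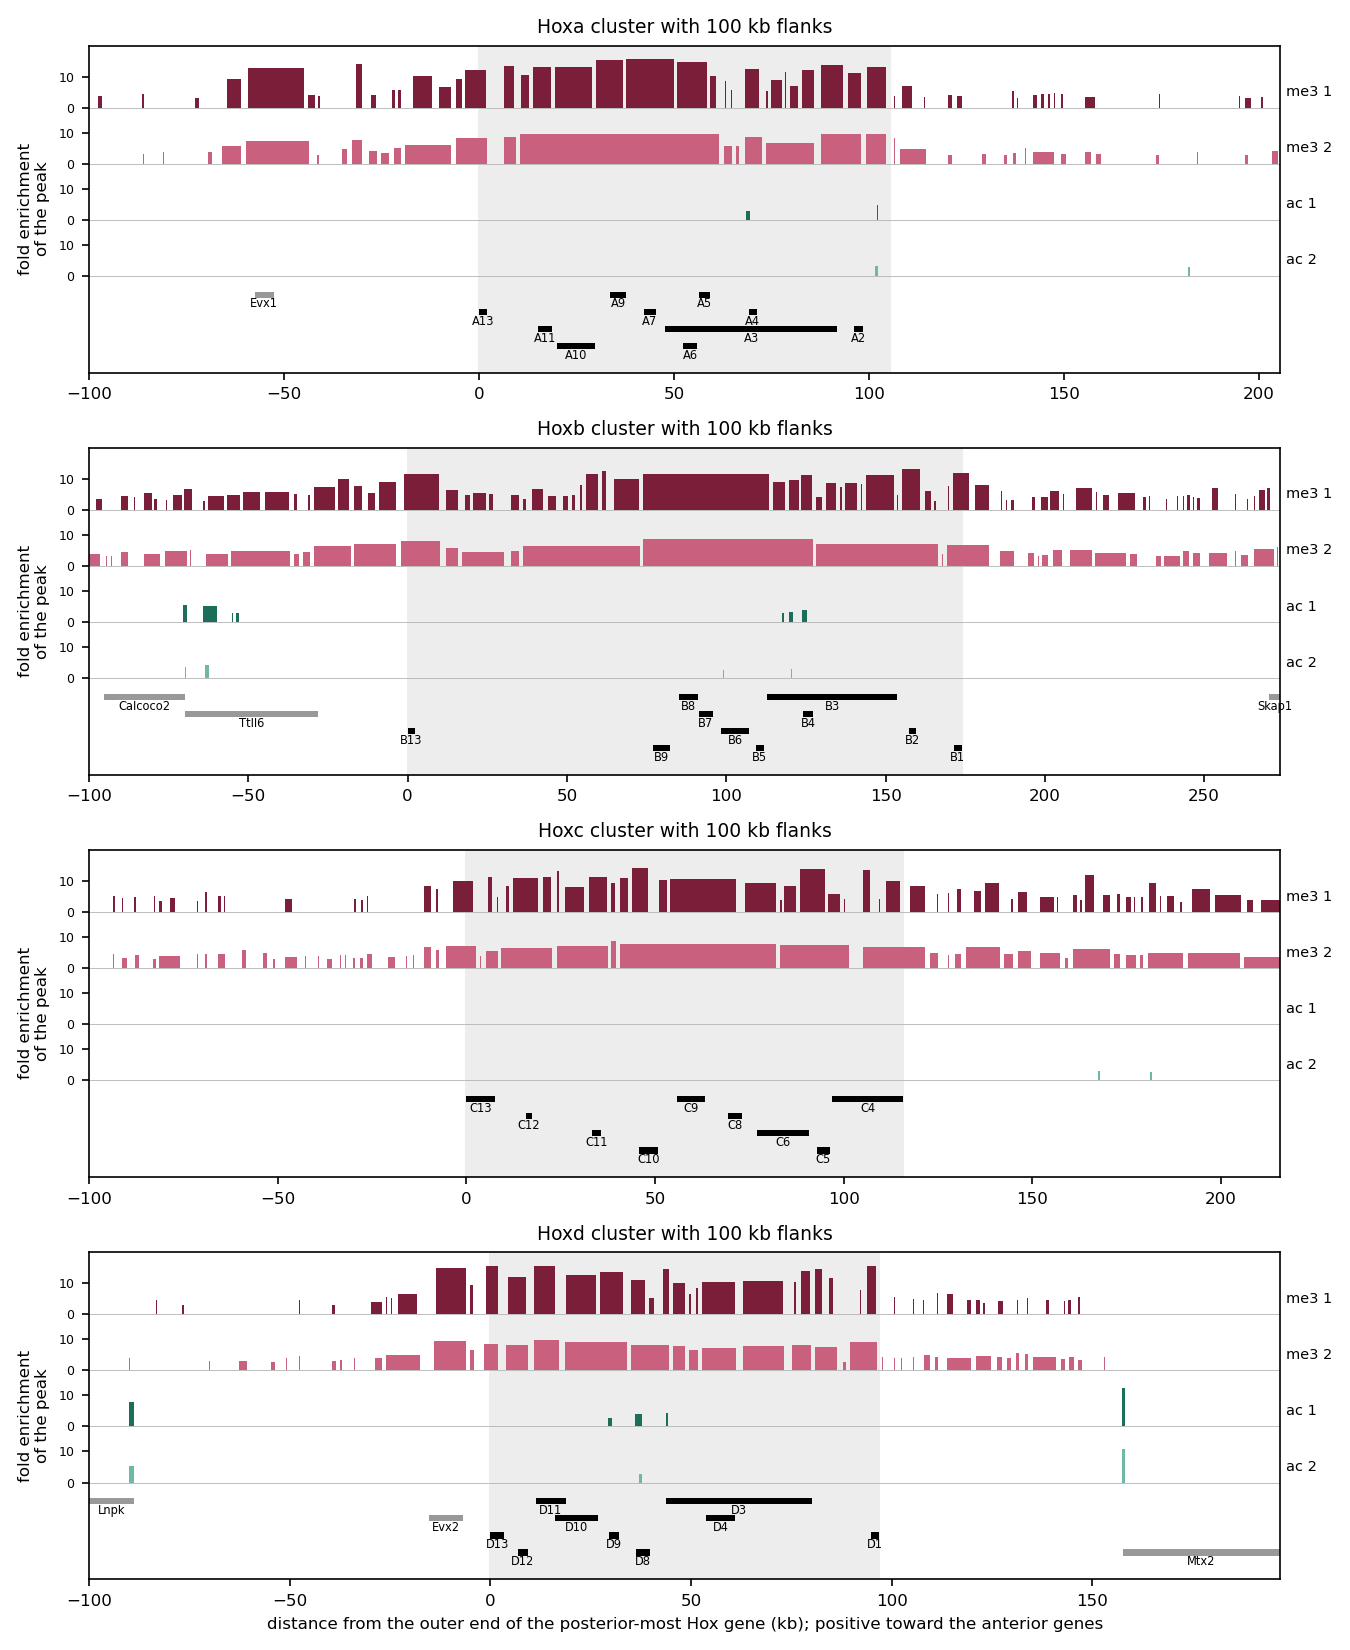
Peaks of the 4 libraries (rows me3 1, me3 2, ac 1 and ac 2, bar height giving the fold enrichment of the peak on a linear axis from 0) over each Hox cluster and its 100 kb flanks, by distance in kb from the outer end of the posterior-most Hox gene. The shaded span runs from the first to the last Hox gene, black boxes are Hox genes and grey boxes other protein-coding genes, with not every gene drawn; H3K27me3 fills most of each span, and the few H3K27ac bars inside the spans are low, at most 4.72.

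The 2 H3K27me3 libraries shared a larger part of their covered bases in the clusters than over the whole genome or in the flanks. Over the 4 spans together, 99.9% of the bases under peaks of library 1 were also under peaks of library 2, and 77.8% of those of library 2 were under library 1. Over the whole genome these shares were 50.1% and 55.8%, and in the flanks of 100 kb they were 91.9% and 58.2%. Bases covered in both libraries therefore follow library 1 in the clusters. Such shares rise with coverage alone, and libraries 1 and 2 covered 69.3% and 88.9% of the spans but 3.73% and 3.35% of the genome span. Agreement beyond coverage was not tested. In each list no gap between neighbouring peaks was shorter than 797 bp (library 1) or 901 bp (library 2), so shorter interruptions of the mark are not visible in these files.

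Merged into domains across interruptions of up to 3 kb, the bases covered in both libraries formed some of the longest H3K27me3 stretches of the genome. Of 26125 domains genome-wide, the median was 0.853 kb long, and 1708 reached 10 kb. The domain holding Hoxb9 to Hoxb2 was 133.5 kb long and ranked 3 by length, behind domains at Unc5a with Hk3 (182.2 kb) and at Cdh22 (142.7 kb). It began 32.5 kb from the outer end of Hoxb13, and Hoxb9 only at 77.0 kb, so part of it lay between these 2 genes. The Hoxc domain of 94.4 kb, from inside Hoxc13 to inside Hoxc4, ranked 9, and the Hoxd domain of 86.5 kb, from Hoxd13 to beyond Hoxd3, ranked 13. Hoxa was split at Hoxa3 into a domain of 58.5 kb (Hoxa11 to Hoxa5 with part of Hoxa3, rank 64) and one of 42.6 kb (over Hoxa4 and Hoxa2, rank 122). These lengths depend on the merging distance, the peak threshold and the library. Merged across 1 kb the longest domains were 36.03 kb at Hoxa, 39.6 kb at Hoxb, 20.5 kb at Hoxc and 14.2 kb at Hoxd. With peaks of −log10 q of at least 5 they were 58.5, 72.9, 88.8 and 42.4 kb, and in library 2 alone the longest domains were 108.2 kb at Hoxa, 245.7 kb at Hoxb, 122.6 kb at Hoxc and 161.4 kb at Hoxd.

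The posterior ends of the domains differed from cluster to cluster. At Hoxd the mark began 1.08 kb outside Hoxd13, counting bases covered in both libraries, and a separate domain of 9.07 kb covered Evx2, the homeobox gene next to Hoxd13. At Hoxa a domain of 23.6 kb began within Hoxa13 and ran outward past Hottip, a non-coding gene at the posterior end of the cluster, and the neighbouring homeobox gene Evx1 lay in a domain of its own of 23.5 kb. With 1 kb on each side, Evx1 was covered to 100% with folds of 12.7 and 7.30, below the lowest Hoxa gene in library 2, and Evx2 to 69.6% with folds of 14.7 and 9.27, within the range of the Hoxd genes. At Hoxb the domain of Hoxb13 was 58.1 kb long and reached 31.2 kb outward into Ttll6, a gene for a tubulin-modifying enzyme. At Hoxc a domain of 5.12 kb sat on the outer end of Hoxc13 and reached 3.45 kb outward. These posterior edges rested on library 1: in library 2 alone the domains reached 35.0 kb outward at Hoxa, 63.3 kb at Hoxb, 20.7 kb at Hoxc and 14.0 kb at Hoxd, where Evx2 was part of the cluster's domain, and Hoxc13 lay in a single domain of 122.1 kb.

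At the anterior ends, the domain over the last gene of Hoxb, Hoxc and Hoxd stopped near that gene when only bases covered in both libraries were counted. It ran 8.44 kb past Hoxb1 and 5.69 kb past Hoxc4. At Hoxd it ended 0.673 kb inside the outer end of Hoxd1, in a domain of 4.22 kb over that gene alone. In library 2 alone the Hoxd domain went 50.5 kb past Hoxd1 and the Hoxc domain 112.0 kb past Hoxc4, so the anterior edges at these clusters rested on library 1. Beyond the Hoxc edge, a further domain of 66.8 kb present in both libraries (rank 43) began 160.8 kb from the outer end of Hoxc13, contained no protein-coding gene and went past the 100 kb window.

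The flanks held less of the mark than the clusters on every side, and the posterior side of Hoxb and the anterior side of Hoxc came closest. Bases covered in both libraries made up 35.7% of the 100 kb on the posterior side of Hoxa and 9.59% on its anterior side. The same shares were 54.3% and 32.7% for Hoxb, 13.2% and 50.01% for Hoxc, and 17.2% and 7.49% for Hoxd. In the clusters themselves they were 71.2%, 72.5%, 67.4% and 63.3%. The Hoxd flanks were thus the emptiest in sum, and the genes that close them off, Lnpk on the posterior and Mtx2 on the anterior side, had 0% and 0% covered in both libraries.

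**Figure D4:**
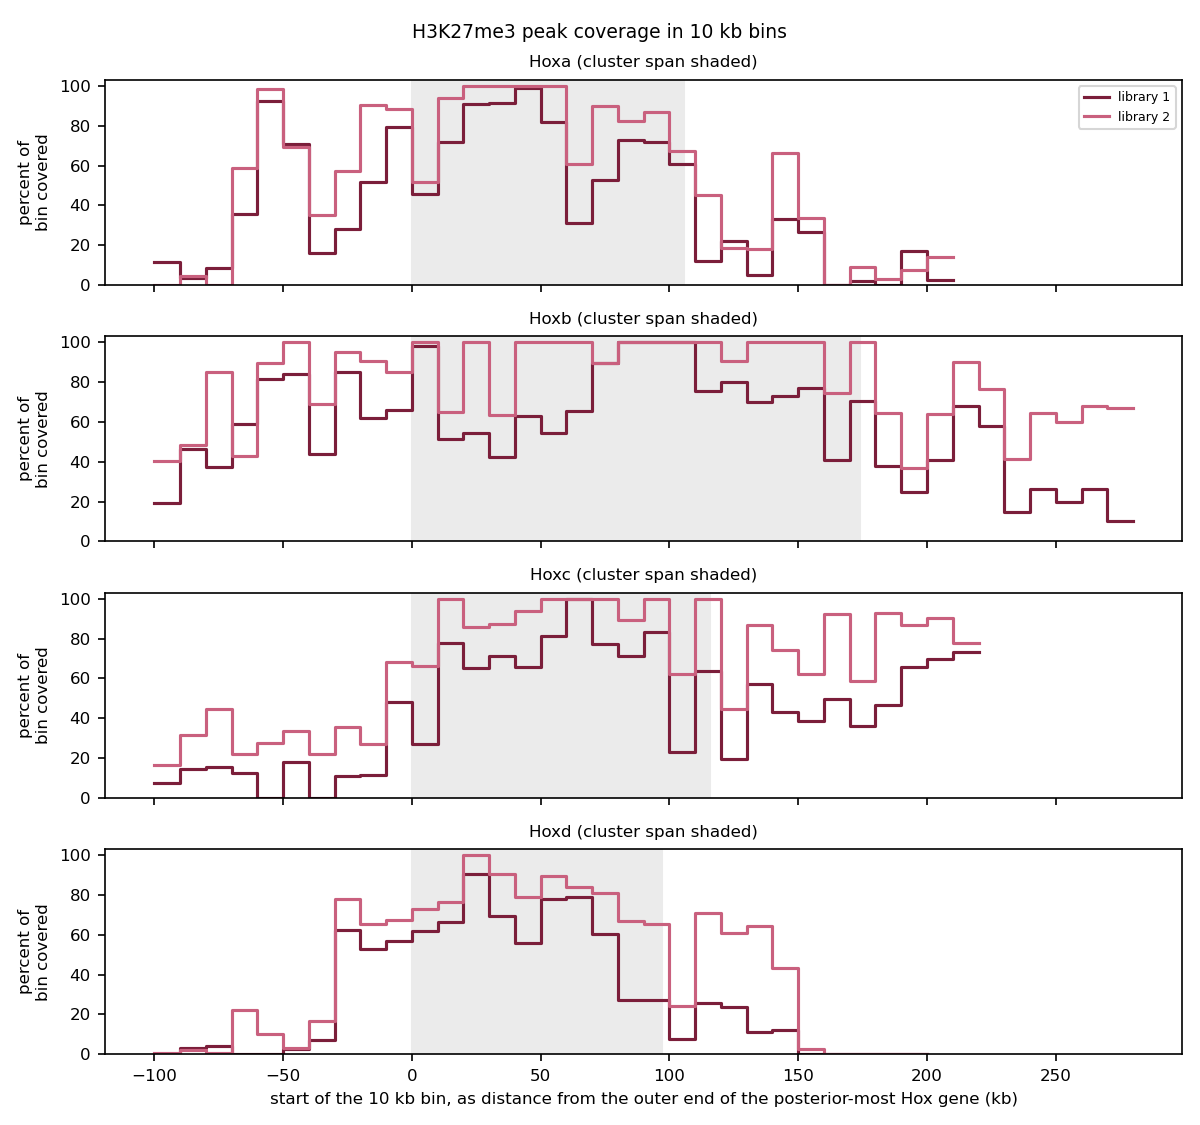
Percent of each 10 kb bin covered by H3K27me3 peaks (vertical axis) in library 1 (dark line) and library 2 (light line), by distance from the outer end of the posterior-most Hox gene (horizontal axis, kb), with the cluster span shaded. Coverage is high in the shaded spans, remains high for 30 kb on the posterior side of Hoxd before it drops, and stays high on the posterior side of Hoxb and the anterior side of Hoxc.

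Within the spans, coverage left gaps. Stretches of at least 1 kb that were not covered in both libraries numbered 68 and summed to 129.4 kb, with 12 in Hoxa, 25 in Hoxb, 15 in Hoxc and 16 in Hoxd. Stretches covered in neither library numbered 29 and summed to 45.9 kb. The longest of the latter, 4.39 kb, lay between Hoxa11 and Hoxa13 and reached into the inner end of Hoxa13. Next came 3.75 kb inside Hoxc4. The longest stretch not covered in both libraries was 6.66 kb in Haglr, a non-coding gene between Hoxd3 and Hoxd1, and library 2 covered part of it. Of the 29 stretches free of the mark in both libraries, 18 touched a Hox gene, and none of the 7 in Hoxb did. Hox genes make up 69.8% of the Hoxa span, 43.2% of Hoxb, 55.1% of Hoxc and 67.9% of Hoxd. Whether gaps lie at Hox genes more or less often than these shares was not tested. No gap of either kind held a base of H3K27ac in either library.

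The mark was also not spread evenly between the Hox genes and the rest of each span, which includes the non-coding genes. In Hoxb, 85.0% of the bases inside Hox genes were covered in both libraries against 63.0% of the other bases. In Hoxd the shares were 73.0% and 42.5%. In Hoxa they were closer, 72.9% and 67.3%, and in Hoxc the order was turned, 62.8% in Hox genes and 73.1% outside them. The table of genes gives gene spans and not exons, so exons and introns were not separated.

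Strand was known for 22 of the 39 genes from the RefSeq promoter table, which allowed the start of a gene to be set against its far end. The start here was the upstream end of the gene span, which lay away from the promoter entry at Hoxc4, Hoxd10 and Hoxb8. At Hoxd10 the window at the span end was covered to 57.0% in both libraries, and the window at the promoter entry to 100%. In windows of 1 kb on each side, bases covered in both libraries made up a median of 100% at the start and 51.3% at the far end. The start was covered more than the end at 17 genes, the end more at 1 gene (Hoxb1, 61.9% against 100%), and 4 genes were equal. Library 1 gave the same counts, and library 2, with its longer peaks, gave 9 with the start higher, 0 with the end higher and 13 equal. Hoxd13 was the extreme case: its start was covered to 100% in both libraries and its far end to 0% in library 1 and 20.7% in library 2. Hoxd12 had 100% at the start and 14.8% and 47.7% at the end, Hoxc4 100% against 12.4% and 100%, and Hoxd1 98.7% and 100% against 16.4% and 32.3%. This direction is not particular to Hox genes: of 4478 other genes with H3K27me3 of both libraries in a start or end window, 78.3% had more at the start than at the end, beside 77.3% of these Hox genes, with mean coverages of 49.5% and 16.1% beside 91.7% and 55.3%. The Hox genes had more of the mark at both places.

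**Figure D5:**
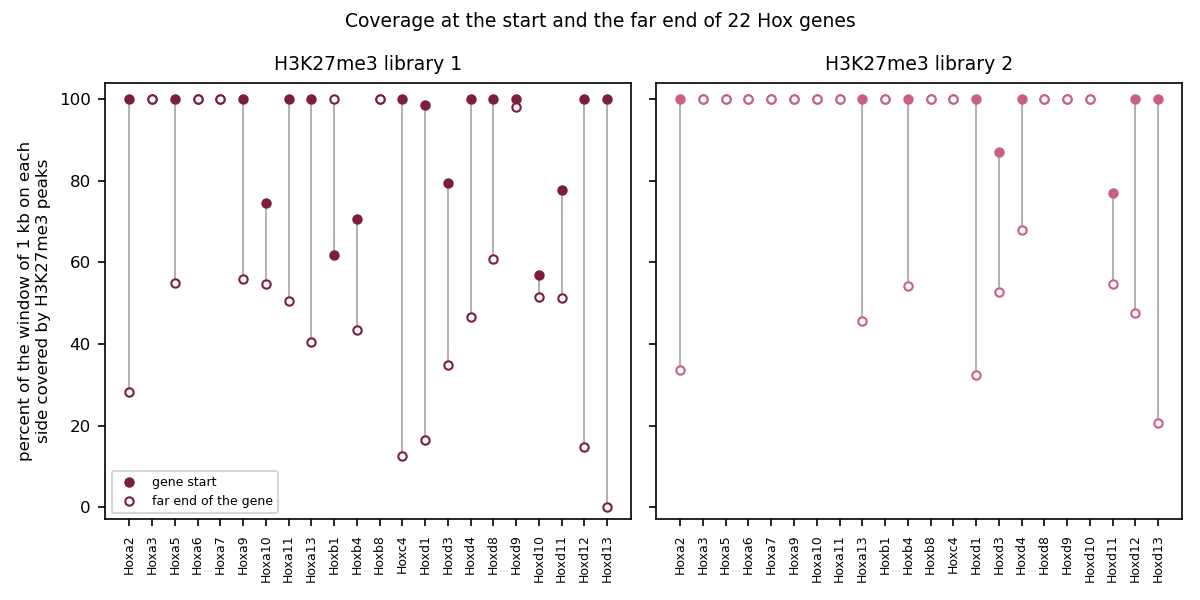
Percent of the window of 1 kb on each side covered by H3K27me3 peaks (vertical axis) at the start (filled circles) and at the far end (open circles) of the 22 Hox genes with a known strand, in library 1 (left) and library 2 (right). A grey line joins both values of a gene; an open circle alone means that both are equal. In library 1 the start is higher at 17 genes, and Hoxd13 has 100% at its start and 0% at its far end.

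Non-coding genes inside the clusters shared the mark of their neighbours. All 24 long non-coding RNA genes within the 4 spans had H3K27me3 of both libraries at their ends, against a background of 24.6% of such genes. Libraries 1 and 2 covered 69.3% and 88.9% of these spans, and some of the peaks are those of Hox genes. Hoxb5os, for example, had 11.7 and 8.64 from the peaks of Hoxb5. The count is therefore not independent of that of the Hox genes. Of these, 11 were covered over at least 80%, a count for which no background was computed. Hoxb5os was covered over 100%. Hotair, the RNA between Hoxc12 and Hoxc11 known for its proposed link to PRC2, was among the least covered, with 26.5% in library 1 and 69.3% in library 2. Haglr had 26.6% and 78.3%.

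All 6 miRNA genes inside the spans also had H3K27me3 of both libraries within 1 kb, against a background of 16.2% of miRNA genes. This count, too, is not independent of that of the Hox genes. Of the 6 hairpins, 5 were covered over at least 80% in both, again with no background computed. The hairpin of Mir10a, upstream of Hoxb4, was the exception, with 0% covered in library 1 and 100% in library 2. Mature sequences from RefSeq (GRCm38.p6) are shown because these genes repeat the history of the clusters, with copies at matching places in different clusters. Capitals mark the seed, bases 2 to 8, with which a miRNA pairs to its targets, and the order below is miR-10a (Hoxb, chr11:96317186-96317208, plus strand), miR-10b (Hoxd, chr2:74726074-74726096, plus), miR-196a (Hoxb, chr11:96265187-96265208, plus, with a second copy in Hoxc at chr15:102973365-102973386, plus), miR-196b (Hoxa, chr6:52230129-52230150, minus) and miR-615 (Hoxc, chr15:103014969-103014990, plus).
miR-10a-5p: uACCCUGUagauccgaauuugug
miR-10b-5p: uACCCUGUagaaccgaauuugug
miR-196a-5p: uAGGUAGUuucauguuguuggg
miR-196b-5p: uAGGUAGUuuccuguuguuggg
miR-615-3p: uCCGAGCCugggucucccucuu
The miR-10 pair shares the seed ACCCUGU and the miR-196 group the seed AGGUAGU, while miR-615 has its own, CCGAGCC. The copies with a shared seed did not all have the same level. Mir10b lay under peaks of 10.3 and 7.16. Mir10a lay under a peak of 8.64 in library 2, but in library 1 only beside a peak of 11.2, which did not reach the hairpin. The miR-196 genes lay under peaks of 15.2 and 9.48 in Hoxa (Mir196b), 9.89 and 6.33 in Hoxb (Mir196a-1) and 10.4 and 7.72 in Hoxc (Mir196a-2). Their neighbouring coding genes also had Hoxa first, but they share some of these peaks. Both peaks of Mir196b are also those of Hoxa10, and the library 2 peak of Mir196a-2 is also that of Hoxc10. The 2 orders are therefore not independent.

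H3K27ac was nearly absent from the clusters. Hoxd8 was the only one of 39 Hox genes with H3K27ac of both libraries at its ends, against a background of 60.8% of all protein-coding genes. Over whole genes with 1 kb on each side, 3 of 39 Hox genes had a peak in both libraries, against 67.5% of all genes. Inside the 4 spans library 1 had 8 H3K27ac peaks and library 2 had 4, and these overlapped at only 3 places. Their folds ran from 2.72 to 4.72 in library 1 and from 2.75 to 3.35 in library 2. Their medians were 3.62 and 2.90, beside medians of 3.61 and 3.43 over all H3K27ac peaks of the libraries. No peak of either library fell inside the Hoxc span.

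The shared places included Hoxb3 and Hoxd8. The peak inside Hoxb3, which library 1 placed at chr11:96314155-96315143, had folds of 3.40 and 3.06 and lay at least 3124 bp from the boundary of Hoxb4. The peak at Hoxd8, a trunk-patterning gene, had 3.84 and 2.75, and in library 2 only 0.991% of the H3K27ac peaks had a lower fold. In library 1 this peak covered the Hoxd8 start, while in library 2 it began 648 bp downstream of it. Other peaks were seen in 1 library only: at Hoxa4 (3.01), Hoxb4 (3.95), Hoxd9 (2.72) and Hoxd3 (4.19) and inside Hoxb3 (2.85) in library 1, and at Hoxb6 (2.75) in library 2. In library 1 alone 5 of 39 Hox genes had H3K27ac at their ends (background 65.1%), in library 2 alone 3 of 39 (background 62.2%), and in at least 1 library 7 of 39. With peaks of −log10 q of at least 2 or at least 5 in both libraries the count was 0 of 39, beside backgrounds of 56% and 45.6%.

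All 12 H3K27ac peaks inside the spans lay over their full length under H3K27me3 peaks of both libraries. The libraries are from pooled cells, so the same place marked in different cells or alleles and both marks on neighbouring nucleosomes cannot be told apart. In the flanks, the strongest H3K27ac peaks were at the boundaries of genes outside the H3K27me3 domains. Mtx2, which encodes a mitochondrial import protein, had 12.3 and 10.6, and Lnpk, which encodes an endoplasmic reticulum protein, had 7.90 and 5.24. The boundary shared by Calcoco2 and Ttll6 on the posterior side of Hoxb had 5.56 and 3.69, and there H3K27me3 of both libraries was also present.

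The sequence before the start is shown for Hoxd8, the Hox gene with H3K27ac in both libraries, and for Hoxa3, the Hox gene with the highest H3K27me3 rank. Each is the 250 bases before the annotated start from RefSeq (GRCm38.p6), at chr2:74704365-74704614 on the plus strand for Hoxd8 and at chr6:52213068-52213317 on the minus strand for Hoxa3, with CG dinucleotides, the sites of DNA methylation that are dense in promoters bound by Polycomb complexes, in capitals. Hoxc12, with the lowest rank, has no entry in the table.
Hoxd8: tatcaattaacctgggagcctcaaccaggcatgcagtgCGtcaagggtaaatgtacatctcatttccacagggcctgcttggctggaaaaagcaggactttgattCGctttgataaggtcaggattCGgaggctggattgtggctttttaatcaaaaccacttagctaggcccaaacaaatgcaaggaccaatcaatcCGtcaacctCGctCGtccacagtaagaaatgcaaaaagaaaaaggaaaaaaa
Hoxa3: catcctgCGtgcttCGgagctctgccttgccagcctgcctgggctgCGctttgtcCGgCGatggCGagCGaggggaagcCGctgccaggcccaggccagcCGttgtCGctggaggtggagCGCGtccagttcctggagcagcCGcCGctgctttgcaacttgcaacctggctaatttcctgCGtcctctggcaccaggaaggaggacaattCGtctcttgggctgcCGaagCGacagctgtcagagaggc
Both stretches lie under H3K27me3 peaks of both libraries, and the Hoxd8 stretch also lies under the H3K27ac peak of library 1. Hoxa3 has 18 CG dinucleotides and 64.8% G and C in its stretch, and Hoxd8 has 6 and 44.4%. Over the 24 Hox promoters in the table, from 22 genes, the median was 12.5 CG, from 2 to 35, beside a median of 10 over 21262 promoters of protein-coding genes and 15 over promoters of other genes with H3K27me3 of −log10 q of at least 5 within 1 kb. On either strand, TATAAA was found in 16.7% of Hox promoters and 11.6% of all, AGGTCA (the half-site letters of nuclear receptors) in 25% and 12.8%, GAGAG in 58.3% and 54.6%, and CCATNTT in 4.17% and 11.2%. With 24 promoters, these shares rest on 4, 6, 14 and 1 promoters, and no motif contains another.

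The genes known to act with or upon Hox genes fell into groups with different marks. Of 44 such genes, 25 had H3K27me3 in both libraries (background 28.7%), 27 had H3K27ac, a share near the background of 60.8%, and 11 had both (background 17.5%). The Pbx, Meis and Pknox genes encode the homeodomain partners with which Hox proteins bind DNA, and all 9 had H3K27ac, with folds of 17.8 and 10.3 at Pknox1. H3K27me3 was also present at 5 of the 9, at folds of at most 6.24 and 5.07 (Meis2). The genes of PRC2 itself, Ezh2, Ezh1, Eed and Suz12, had H3K27ac in 4 of 4 and H3K27me3 of both libraries in 0 of 4, with H3K27ac folds of 21.3 and 16.4 at Ezh2, its catalytic subunit. On the trithorax side, which opposes Polycomb, 6 of 7 genes had H3K27ac and 0 of 7 had H3K27me3 of both libraries, among them Kdm6a, a demethylase of H3K27, with 26.2 and 18.5.

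Homeobox genes that act upstream of or beside the clusters shared the presence of H3K27me3 with the Hox genes, but not always its level. Evx1 and Evx2, and all 6 Cdx and ParaHox genes, which are evolutionary relatives or activators of Hox genes, had H3K27me3 and none had H3K27ac in both libraries. Cdx2, Gsx1 and Pdx1 were covered to 100%, with folds of 11.5 and 6.51 at Cdx2, 10.9 and 7.24 at Gsx1 and 10.1 and 6.05 at Pdx1. Cdx1 (6.66 and 4.85) and Cdx4 (6.52 and 5.02, with 17.6% covered) lay below every Hox gene in both libraries, and Gsx2 had 9.45 and 6.78. Egr2 and Gbx2, which set up the hindbrain segments and the border of midbrain and hindbrain, had 11.3 and 5.88, and 11.7 and 7.92, with no H3K27ac. Otx2, a gene of the head in front of the Hox territory, had both marks, with H3K27ac of 11.5 and 8.69 and H3K27me3 of 6.49 and 3.95. Retinoic acid, the signal that opens the clusters from the anterior end, is made and destroyed by enzymes of another group: 8 of 12 genes of this pathway had H3K27me3 (background 28.7%) and 6 of 12 had H3K27ac (background 60.8%). Aldh1a2, the main embryonic synthesis enzyme, had H3K27me3 of 18.4 and 9.17 and H3K27ac of 3.21 and 3.10. Only 7.05% of Aldh1a2, with 1 kb on each side, was covered by H3K27me3 in both libraries. The Cyp26 enzymes that degrade retinoic acid had H3K27me3 in all 3 cases with no H3K27ac. The receptors Rara and Rarg had H3K27ac (9.12 and 7.18, 9.01 and 6.68) with no H3K27me3 in both libraries.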

How the data were processed

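ChIP-seq of GBCs gave 4 peak lists, 2 for H3K27me3 and 2 for H3K27ac, and groups were taken from the sample titles. Per the submitters' processing notes, fastp, Bowtie, Picard and MACS2 were used with GRCm38 (mm10); versions and settings are not given in the sources used here. Each list is in the broad-peak layout of 9 columns, 1 library to a list. The authors deposited for each peak a fold enrichment, which is a linear ratio averaged over the peak. The deposited −log10 p and −log10 q and a score, 10 times the −log10 q, are also per peak. All are the authors' values and serve here for ranking, filtering and description inside a list. Fold is averaged over a peak, so a long merged peak gives neighbouring genes 1 value. No count of reads is given, so depth is unknown and the 2 libraries' folds are not on a common scale.

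Peaks were joined to a RefSeq gene table of GRCm38.p6 (49997 genes, 21883 protein-coding tested, no strand) with Python 3.11.15, numpy 2.4.6 and pandas 2.3.3, and figures were drawn with matplotlib 3.10.9. A gene was marked when peaks of both libraries came within 1 kb of either gene end (overlap of 1 bp). Consensus bases lay under peaks of both libraries, and domains were merged across up to 3 kb. Fold ranks used the mean over the libraries. Interval functions were tested on simulated data. Neighbouring genes are no replicates and 2 libraries a mark allow no test, so counts stand beside the background over all genes, with no p-value. Full values go to each cluster's 3 highest and 2 lowest genes by mean fold rank, to genes with H3K27ac and to genes beside gaps and edges. Members and lists were chosen with earlier results of these data known. Alternatives changed windows, peak thresholds, overlap, merging, flanks and libraries. The labels do not state whether the 2 libraries of a mark come from separate pools, so differences between them may be technical. Some genes are not reported here.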

Additional observations from a re-analysis of the deposited data

How the results depend on the processing

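The count of 39 Hox genes with H3K27me3 was the same under every window, threshold, overlap and library setting tried. It was 22 of 22 where only the upstream ends of gene spans with a known strand were used. Hox genes with H3K27ac of both libraries (1) became 0 with windows of 500 bp, with 500 bp of a window covered, and with peaks filtered at −log10 q 2 or 5. They became 2 with windows of 2.5 kb, 3 over whole genes and 7 with either library, and leaving out a library gave 3 to 5. Regulator genes with H3K27me3 numbered 13, not 25, at −log10 q 5. The share of the 4 spans covered (69.2%) was 89.0% with either library and 69.3% to 88.9% with 1 library. The longest domains of the 4 clusters summed to 372.8 kb, and to 110.3 kb when merged across 1 kb, 1023.8 kb across 10 kb, 638.9 kb with either library and 372.8 to 637.8 kb with 1 library. Gaps (68) numbered 24 at 2 kb or more, 29 in neither library and 30 to 67 with 1 library. H3K27ac regions of both libraries in spans and flanks (7) numbered 3 with flanks of 50 kb, 4 and 2 when filtered at −log10 q 2 and 5, 18 with either library and 11 to 14 with 1 library. The median Hox fold, 10.2 as a mean over the libraries, was 8.64 to 12.5 with 1 library. The cause of these changes was not tested. No paired analysis was possible because the values come from no test, and by the titles H3K27me3 replicate 1 shares its input with H3K27ac replicate 2. Absence of a peak holds only for the authors' threshold and a depth that is unknown.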
